A study of Mus musculus with 4 samples.

Results

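Mature miRNAs that are high in neurons were followed in exosomes shed into culture medium by C26 and MC38, a pair of mouse colon carcinoma lines. The set was named as 7 mature miRNAs (mmu-miR-9-5p, mmu-miR-9-3p, mmu-miR-124-3p, mmu-miR-128-3p, mmu-miR-129-5p, mmu-miR-138-5p and mmu-miR-219a-5p, written below without the species prefix), and 6 of them were found by name among the 795 miRNAs of the deposited table. miR-124-3p was not analysed here. Per the labels, both lines were grown in medium freed of exosomes and received no other treatment. Exosomes of each line were isolated with ExoQuick-TC, a reagent that precipitates vesicles, or with a Wako exosome ELISA kit, which captures vesicles. Each combination of line and kit gave 1 library, named below by line and kit. No label ties the libraries to separate cultures, so the p-values describe the spread among these libraries and that spread may be technical. With 1 library per combination, it is not a spread among replicates. In fits with both line and kit, it is the departure of the libraries from line and kit effects that add.

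A miRNA is cut from a hairpin precursor that can yield a mature strand from its 5′ arm (5p) and one from its 3′ arm (3p). Bases 2 to 8 of the mature strand, the seed, pair with target mRNAs and set which messages are repressed. The miR-9, miR-124, miR-128, miR-129 and miR-138 families are known from neural tissue, where they act in neuronal differentiation, excitability and synapse growth, while miR-219a is best known from the myelinating cells of the brain. In miR-9, both strands act in neurons.

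The mature sequences are shown because the members differ in their seeds and so cannot be read as one family. They were taken from RefSeq (GRCm38.p6), which held 6 of the 7 names, and are written 5′ to 3′ with the seed in capitals.
miR-9-5p: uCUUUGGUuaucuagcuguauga
miR-9-3p: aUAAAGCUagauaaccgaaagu
miR-128-3p: uCACAGUGaaccggucucuuu
miR-129-5p: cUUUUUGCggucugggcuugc
miR-138-5p: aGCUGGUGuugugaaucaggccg
miR-219a-5p: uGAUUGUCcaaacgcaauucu
No seed was shared between members, and for each of them 0 other miRNAs of the deposited table had the same seed in RefSeq. Each member has 2 or more hairpins in the genome, so a mature read alone does not tell which hairpin it came from.

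The hairpins of the members that led the reads are shown next, since the strands opposite to miR-129-5p and miR-138-5p are listed per hairpin. Capitals in the Mir129 pair mark a stretch of 21 bases that both 3′ arms hold, and capitals in the Mir138 pair mark the mature strands.
Mir129-1: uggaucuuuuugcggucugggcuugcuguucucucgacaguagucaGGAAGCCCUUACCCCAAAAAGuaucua
Mir129-2: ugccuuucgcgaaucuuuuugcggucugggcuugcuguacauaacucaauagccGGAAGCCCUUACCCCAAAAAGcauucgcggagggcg
Mir138-1: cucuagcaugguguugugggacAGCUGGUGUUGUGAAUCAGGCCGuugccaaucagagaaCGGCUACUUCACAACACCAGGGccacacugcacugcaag
Mir138-2: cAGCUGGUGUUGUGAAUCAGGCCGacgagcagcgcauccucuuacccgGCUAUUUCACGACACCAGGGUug
In GRCm38, Mir129-1 lies on chromosome 6 (29022619 to 29022691, plus strand) in an exon of the noncoding RNA Gm3294. Mir129-2 lies on chromosome 2 (94241364 to 94241453, minus strand) in an intron of the noncoding RNA Mir670hg, with the hairpin Mir129b on the opposite strand. Mir138-1 lies on chromosome 9 (122682876 to 122682974, plus strand) in an exon of the pseudogene Gm47135, and Mir138-2 on chromosome 8 (94324311 to 94324381, plus strand) in an exon of the noncoding RNA C78859. Mir128-1 (chromosome 1, 128202361 to 128202430, plus strand) and Mir128-2 (chromosome 9, 112118636 to 112118711, minus strand) lie in introns of the protein-coding genes R3hdm1 and Arpp21. The 3 miR-9 hairpins lie in noncoding RNAs on chromosomes 3, 7 and 13.

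Values are RPM, reads relative to the library total, and the whole reads behind each value were recovered. Totals were 1356801 reads in C26 ExoQuick, 340643 in MC38 ExoQuick, 33692 in C26 Wako and 3867 in MC38 Wako. A read therefore stood for 0.737, 2.94, 29.7 and 259 RPM, respectively. The floor, the level that a count of 0 allows at 3 reads, was 2.21, 8.81, 89.0 and 776 RPM. The reads listed over all miRNAs summed to 1434877, 347527, 34877 and 3953 in the same order, above the total in each library. Some reads may therefore be counted under more than 1 miRNA. Percentages of a library are relative to its total and need not be shares of distinct reads. All intervals are exact 95% intervals (Clopper-Pearson) and cover counting error only, because the reads carry no molecular identifiers and need not be independent molecules. The MC38 libraries differed from each other in their marker miRNAs. The 5 mesenchymal marker miRNAs summed to 2448 RPM in MC38 ExoQuick, against 43960 in MC38 Wako, 132100 in C26 ExoQuick and 67170 in C26 Wako. The 4 white blood cell miRNAs summed to 79.3 RPM in MC38 ExoQuick, against 6465, 4656 and 6114 in the same order. Most of the C26 ExoQuick sum was miR-142a-5p (4584 of the 4656 RPM), which also gave 19 of the 25 reads behind the MC38 Wako sum. In C26 Wako it gave 2909 of the 6114 RPM. Within ExoQuick, miR-142a-3p and miR-150-5p were lower in MC38 as well. miR-223-3p was higher there by a ratio of 2.79 (0.901 to 8.11, which holds 1), and it had 0 reads in MC38 Wako. In both sums MC38 ExoQuick stood apart, and MC38 Wako lay nearer, as a ratio, to both C26 libraries than to the other library of its own line. The part of these miRNAs in the results below was not tested, and the limma line differences are given also without each MC38 library, in fits that could not keep the kit term. Red cell miRNAs summed to 41.1 to 1039 RPM over the libraries, miR-122-5p of liver ranged from 59.4 to 746 RPM, and the muscle miRNA miR-206-3p had 6 reads in MC38 ExoQuick and 0 elsewhere. The intestinal epithelial miRNAs with a row, miR-192-5p and miR-194-5p, summed to 64.6 to 1034 RPM. The highest sum, in MC38 Wako, rested on 4 reads of miR-194-5p, and miR-192-5p had 0 reads there. The epithelial miR-200 family was not analysed here.

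The neuron-enriched miRNAs made up under 1% of every library, and the leading member differed between the C26 libraries and MC38 ExoQuick. Together they gave 6065 reads in C26 ExoQuick (0.447% of the library, 0.436 to 0.458), 106 in C26 Wako (0.315%, 0.258 to 0.380), 2989 in MC38 ExoQuick (0.878%, 0.846 to 0.909) and 14 in MC38 Wako (0.362%, 0.198 to 0.607). MC38 ExoQuick was the highest, and the interval of MC38 Wako overlapped those of both C26 libraries. In bulk RNA, more vesicles of one kind and more RNA per vesicle cannot be told apart.

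In C26 the set was carried by miR-129-5p, with miR-138-5p and miR-9-3p next. miR-129-5p gave 66.7% of the members' reads in C26 ExoQuick (65.5 to 67.9) and 62.3% in C26 Wako (52.3 to 71.5). In MC38 ExoQuick, miR-138-5p gave 56.4% (54.6 to 58.2) and miR-129-5p 37.6% (35.8 to 39.3). In MC38 Wako these 2 had 6 reads each of the 14, so that no leading member could be named at this depth. miR-138-5p and miR-9-3p took 14.7% and 14.4% in C26 ExoQuick, and miR-9-3p took 2.88% in MC38 ExoQuick. Shares compare reads and not molecules, as different miRNAs can be captured with unequal efficiency in library preparation.

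**Figure D1:**
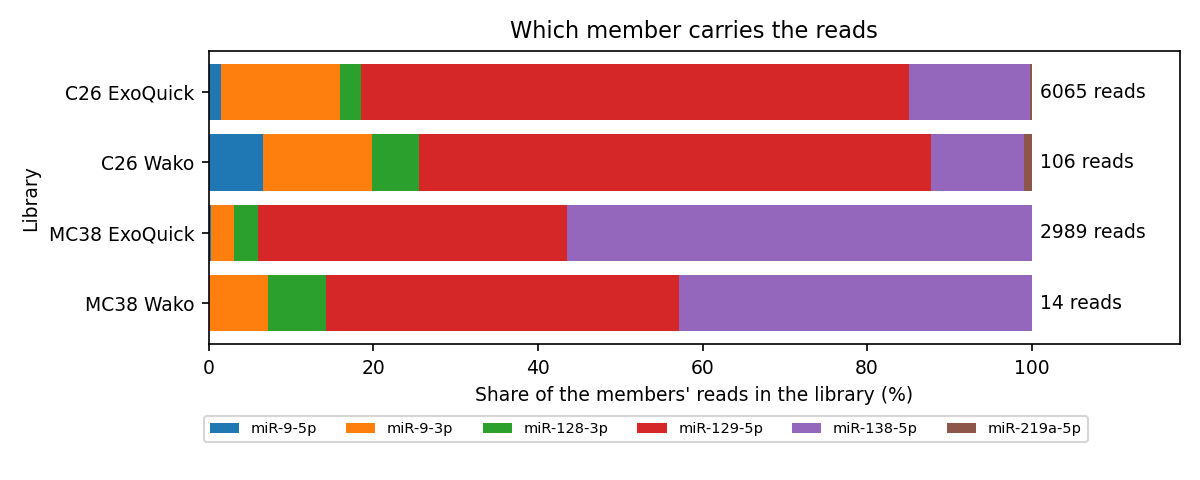
Share of the members' reads (x axis, %) given by each of the 6 neuron-enriched miRNAs in each library (y axis), with the number of reads at the right. miR-129-5p (red) takes over 60% in both C26 libraries and miR-138-5p (purple) over 50% in MC38 ExoQuick, while the MC38 Wako bar rests on 14 reads.

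miR-138-5p, which restrains dendritic spine size in rat neurons through the depalmitoylating enzyme Lypla1, was the member that differed most between the lines among those with reads in all 4 libraries. It stood at 657 RPM in C26 ExoQuick (892 reads), 356 in C26 Wako (12 reads), 4952 in MC38 ExoQuick (1687 reads) and 1552 in MC38 Wako (6 reads). By point value, both MC38 libraries lay above both C26 libraries. The MC38 Wako interval (570 to 3374 RPM) holds the C26 ExoQuick level, so this separation is not beyond counting error. How many other miRNAs separate the lines in this way was not counted. The MC38 over C26 ratio was 7.53 within ExoQuick (6.94 to 8.18) and 4.36 within Wako (1.34 to 12.5). Its rank by level among miRNAs with reads was 20 of 475 in MC38 ExoQuick and 75 of 687 in C26 ExoQuick. In limma, fitted with the kit beside the line, the log2 difference of C26 against MC38 was −2.52 (SE 0.95, n = 4 libraries) with adjusted p = 0.164, which did not pass 0.05. DESeq2 on the recovered reads called it (log2 −3.0, adjusted p = 0.0375), and the limma difference was −3.35 without MC38 Wako (adjusted p = 0.318) and −1.68 without MC38 ExoQuick (adjusted p = 0.439).

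miR-129-5p, which takes part in the homeostatic lowering of synapse strength in rat neurons, was the most abundant member in both C26 libraries. It stood at 2982 RPM in C26 ExoQuick (4046 reads), 1959 in C26 Wako (66 reads), 3297 in MC38 ExoQuick (1123 reads) and 1552 in MC38 Wako (6 reads). The order followed the kit, with both ExoQuick libraries above both Wako libraries, and the lines overlapped. Within ExoQuick it was 1.11-fold higher in MC38 (1.03 to 1.18), and within Wako the C26 over MC38 ratio was 1.26 (0.55 to 3.56, which holds 1). The limma log2 difference between lines was 0.10 (SE 0.87, adjusted p = 0.957). It was −0.45 without MC38 Wako and 0.64 without MC38 ExoQuick. Its sign changed also with median-ratio scaling (−0.27) and with quantile normalization (−0.35), so no direction between lines is given.

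The reads listed for the strands opposite to miR-129-5p differed between the ExoQuick libraries. miR-129-2-3p, from the Mir129-2 hairpin, had 278 reads in C26 ExoQuick and 6 in MC38 ExoQuick (205 and 17.6 RPM), a C26 over MC38 ratio of 11.6 (5.28 to 32.0). miR-129-1-3p, from Mir129-1, had 5 and 28 reads in the same order (3.69 and 82.2 RPM), an MC38 over C26 ratio of 22.3 (8.5 to 74.0). The share of miR-129-1-3p among reads of both 3p entries was thus 1.77% in C26 ExoQuick (5 of 283, interval 0.576 to 4.08) and 82.4% in MC38 ExoQuick (28 of 34, interval 65.5 to 93.2). The 2 entries moved in opposite directions while miR-129-5p, common to both hairpins, differed by 1.11-fold. With Wako, miR-129-1-3p had 0 reads in either line. miR-129-2-3p had 4 reads in C26 Wako and 1 in MC38 Wako, where 0 of 4 and 0 of 1 allow shares of up to 60.2% and 97.5%. In limma neither passed between lines (adjusted p = 0.813 for both). As the printed hairpins show, 19 of the 22 bases of miR-129-2-3p lie in the stretch common to both 3′ arms. Over the rest of its length the hairpins differ at 1 base only, c in Mir129-2 and u in Mir129-1. Short reads could thus be assigned to either entry or to both by the authors' counting. The same holds for full-length reads if a mismatch was allowed, which is not stated. Both shares rest on 1 library each and have no replicate check.

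The entries opposite to miR-138-5p were lower. miR-138-1-3p, from Mir138-1, had 16 reads in C26 ExoQuick and 25 in MC38 ExoQuick (11.8 and 73.4 RPM), an MC38 over C26 ratio of 6.22 (3.19 to 12.5). miR-138-2-3p, from Mir138-2, had 11 and 2 reads (8.11 and 5.87 RPM), a C26 over MC38 ratio of 1.38 (0.301 to 12.8, which holds 1). The ratio of miR-138-1-3p lay close to the 7.53 of miR-138-5p itself. The share of miR-138-1-3p was 59.3% in C26 ExoQuick (16 of 27, interval 38.8 to 77.6) and 92.6% in MC38 ExoQuick (25 of 27, interval 75.7 to 99.1). These intervals overlap only from 75.7 to 77.6, and the shares were not compared in a direct test. Both entries had 0 reads in the Wako libraries. The 5p strand took 97.1% of all miR-138 reads in C26 ExoQuick (95.8 to 98.1) and 98.4% in MC38 ExoQuick (97.7 to 99.0).

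**Figure D2:**
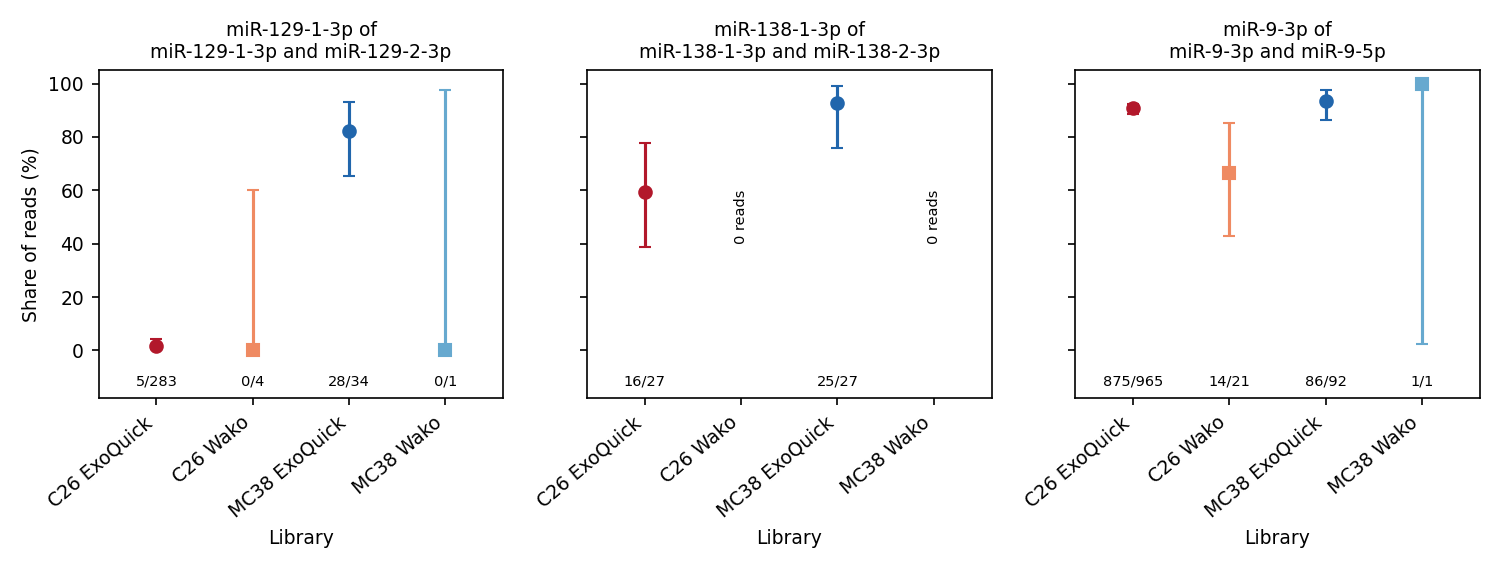
Share of reads (y axis, %) of miR-129-1-3p among both miR-129 3p entries, of miR-138-1-3p among both miR-138 3p entries and of miR-9-3p among both miR-9 strands, in each library (x axis), with exact 95% intervals and reads over total reads printed below. The miR-129-1-3p share is 1.77% in C26 ExoQuick and 82.4% in MC38 ExoQuick, and the miR-9-3p share is over 90% in both ExoQuick libraries.

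The miR-9 strands, which in neural progenitors repress the neuronal silencer Rest (5p) and its cofactor Rcor1 (3p), were higher in C26 ExoQuick than in MC38 ExoQuick. miR-9-3p stood at 645 RPM in C26 ExoQuick (875 reads), 416 in C26 Wako (14 reads), 252 in MC38 ExoQuick (86 reads) and 259 in MC38 Wako (1 read). Both C26 libraries lay above both MC38 libraries, the last of them on a single read. The C26 over MC38 ratio was 2.55 within ExoQuick (2.04 to 3.23) and 1.61 within Wako (0.245 to 67.9, which holds 1). miR-9-5p stood at 66.3 RPM in C26 ExoQuick (90 reads), 208 in C26 Wako (7 reads) and 17.6 in MC38 ExoQuick (6 reads), with 0 reads in MC38 Wako. Its ratio within ExoQuick was 3.77 (1.66 to 10.5), and 2.34 (1.03 to 6.54) with the reads of miR-130a-3p left out of the totals. Under Wako its 208 RPM in C26 lay below the MC38 Wako floor, so no difference was detectable at that depth. Neither strand passed in limma (log2 1.02, SE 1.25, adjusted p = 0.771 for miR-9-3p, and log2 4.78, SE 3.99, adjusted p = 0.711 for miR-9-5p). The value of miR-9-5p depends on the pseudocount through MC38 Wako, and it was 2.67 without that library and 6.89 without MC38 ExoQuick. For miR-9-3p the values were 1.03 and 0.999.

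Within miR-9, the 3p strand gave most reads. It took 90.7% of both strands in C26 ExoQuick (875 of 965, interval 88.7 to 92.4), 93.5% in MC38 ExoQuick (86 of 92, interval 86.3 to 97.6) and 66.7% in C26 Wako (14 of 21, interval 43.0 to 85.4). The ExoQuick shares of the lines overlapped, and the share in C26 Wako was lower than in C26 ExoQuick beyond counting error. The Mir9-1 hairpin is printed to show where the strands lie, with the mature strands in capitals.
Mir9-1: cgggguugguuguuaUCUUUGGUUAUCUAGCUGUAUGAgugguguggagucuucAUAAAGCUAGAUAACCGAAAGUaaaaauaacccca
Mir9-1 lies on chromosome 3 (88215598 to 88215686, plus strand, GRCm38) in an intron of the noncoding RNA Gm3764. Its mature strands are the same in Mir9-2 and Mir9-3, so the hairpins could not be separated for miR-9.

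miR-128-3p, which dampens neuronal excitability, stood at 113 RPM in C26 ExoQuick (153 reads), 178 in C26 Wako (6 reads), 255 in MC38 ExoQuick (87 reads) and 259 in MC38 Wako (1 read). Both MC38 libraries lay above both C26 libraries, the MC38 Wako value on a single read. The MC38 over C26 ratio was 2.26 within ExoQuick (1.72 to 2.97) and 1.45 within Wako (0.0316 to 12.0, which holds 1). It did not pass in limma (log2 −0.85, SE 1.57, adjusted p = 0.817), and its value was −0.84 without MC38 Wako and −0.86 without MC38 ExoQuick. The opposite strand of Mir128-1, miR-128-1-5p, had 5 and 1 reads in the ExoQuick libraries of C26 and MC38 and 2 reads in each Wako library. The opposite strand of Mir128-2 was not counted here, so the shares below leave it out. The share of miR-128-3p in the reads of miR-128-3p and miR-128-1-5p was 96.8% in C26 ExoQuick (92.8 to 99.0) and 98.9% in MC38 ExoQuick (93.8 to 99.97). It was 75.0% in C26 Wako (6 of 8 reads, interval 34.9 to 96.8) and 33.3% in MC38 Wako (1 of 3 reads, interval 0.84 to 90.6). In MC38 Wako miR-128-1-5p had 2 reads and miR-128-3p had 1.

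miR-219a-5p, which promotes oligodendrocyte maturation and represses Pdgfra, was near the detection limit. It had 9 reads in C26 ExoQuick (6.63 RPM), 1 in C26 Wako (29.7 RPM) and 0 in both MC38 libraries. Its level in C26 ExoQuick lay below the MC38 ExoQuick floor of 8.81 RPM, so a difference between lines was not detectable. It had a mean of 9.08 RPM and was left out of the limma fit, which asked for a mean level of 10 RPM or more. Hairpins on the strand opposite to both miR-219a hairpins had reads as well. miR-219c-5p, opposite to Mir219a-1, had 13 reads in C26 ExoQuick and 5 in MC38 ExoQuick (9.58 and 14.7 RPM). miR-219b-5p, opposite to Mir219a-2, had 7 and 2 reads (5.16 and 5.87 RPM). The intervals of both C26 over MC38 ratios hold 1 (0.218 to 2.34 and 0.167 to 8.67). Whether the counting used strand is not given in the sources used here, so these reads are uncertain. miR-338-3p, a second miRNA of oligodendrocytes, had 2 reads in C26 ExoQuick, 12 in MC38 ExoQuick and 0 with Wako.

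**Figure D3:**
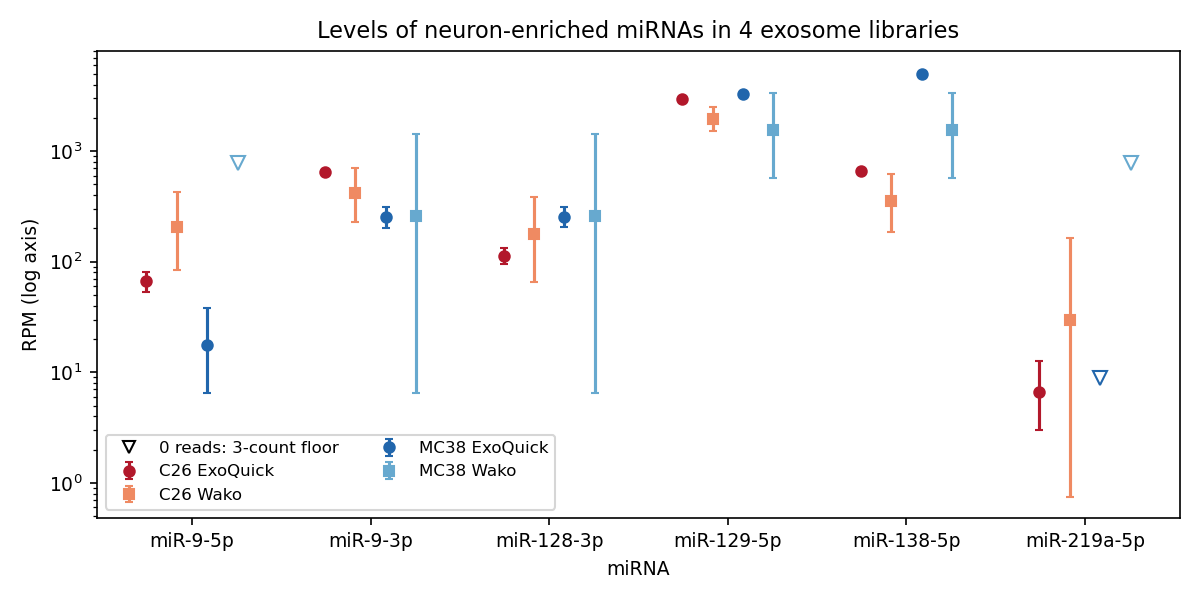
Level of each neuron-enriched miRNA (RPM, log axis) in the 4 libraries, with exact 95% counting intervals, and open triangles at the 3-count floor where a library had 0 reads. By point value, both MC38 libraries lie above both C26 libraries for miR-138-5p and miR-128-3p, below them for miR-9-3p, and the lines overlap for miR-129-5p. The MC38 Wako points rest on 6 reads for miR-138-5p and on 1 read each for miR-128-3p and miR-9-3p.

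Across the set, the lines were compared in limma for the 5 members that met the filter. Of these, 0 passed and 1, miR-138-5p, had an unadjusted p under 0.05. Over the whole table, 13 of 390 miRNAs passed (3.33%). The members' median log2 difference was 0.10, with a range of −2.52 to 4.78, against a median of 1.85 for all 390. That overall median depends on the scaling, at 1.31 with median-ratio scaling and −0.05 with quantile normalization. Without MC38 Wako the medians were −0.45 for the members and 1.19 for all 390, and without MC38 ExoQuick they were 0.64 and 1.74. miR-138-5p and miR-128-3p were lower and both miR-9 strands higher in C26 under every scaling tried (total reads, TMM, median ratio and quantile). edgeR on the recovered reads also called 0 members, against 19 of 390 miRNAs (4.87%), and DESeq2 called 1, against 15 of 390 (3.85%).

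Within ExoQuick, the deeper pair of libraries, 4 of the 5 members tested in limma differed by over 2-fold, as did 58.4% of the 310 miRNAs compared in the same way. Within Wako, 1 of 4 did, against 41.0% of 173 miRNAs. With so few members, these counts cannot be told apart from the shares of the table. The members' total was 1.96-fold higher in MC38 ExoQuick than in C26 ExoQuick (1.88 to 2.05), and within Wako the MC38 over C26 ratio was 1.15 (0.608 to 2.02, which holds 1). Without miR-138-5p the ExoQuick totals were 3813 RPM in C26 and 3822 in MC38, a C26 over MC38 ratio of 0.998 (0.939 to 1.06). That member was left out after seeing the data, and the near equality depends on which reads the library totals hold.

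One other miRNA bears on these ratios. miR-130a-3p took 49.0% of MC38 ExoQuick and 17.8% of C26 ExoQuick. When its reads were left out of the totals, a choice made after seeing the data, each MC38 over C26 ratio within ExoQuick rose by over 1.5 times, to 12.1 for miR-138-5p, 3.65 for miR-128-3p, 1.78 for miR-129-5p and 3.16 for the members together. Without miR-138-5p the members' total was then 1.61-fold higher in MC38 (1.52 to 1.71). The C26 over MC38 ratios of both miR-9 strands fell by over 1.5 times, to 1.59 for miR-9-3p (1.27 to 2.0) and 2.34 for miR-9-5p. With median-ratio scaling over the 208 miRNAs with at least 10 reads in both libraries, whose median C26 over MC38 ratio was 0.977, the members' total remained 1.92-fold higher in MC38 (1.83 to 2.0).

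The kits were compared in the same limma fit, with line as the second term. Of the 5 members tested, 0 passed (adjusted p from 0.652 to 0.976), 0 had an unadjusted p under 0.05, and edgeR and DESeq2 also called 0. Among all miRNAs fitted, 21 of 390 passed in limma (5.38%), 7 in edgeR (1.79%) and 16 in DESeq2 (4.10%). The members' median log2 difference of Wako against ExoQuick was −0.85, against 0.44 for all 390. These medians depend on the scaling, at −2.28 and −0.61 with median-ratio scaling and −2.48 and −0.82 with TMM. Without MC38 Wako they were 0.04 and 1.91, and without MC38 ExoQuick −0.77 and −0.15. miR-138-5p was lower with Wako in both lines, by ratios of 0.542 in C26 (0.279 to 0.951) and 0.313 in MC38 (0.115 to 0.683). miR-129-5p was at ratios of 0.657 in C26 (0.507 to 0.838) and 0.471 in MC38 (0.172 to 1.03, which holds 1). Of the 5 members tested in limma, 1 differed by over 2-fold in C26, miR-9-5p at 3.13-fold higher with Wako (1.22 to 6.72), against 64.9% of 333 miRNAs. miR-219a-5p, outside that fit, was at a ratio of 4.47 on 1 Wako read (0.102 to 32.3, which holds 1). In MC38, 2 of 4 tested members with reads in both libraries did against 79.2% of 178 miRNAs. The Wako library was the shallower in each line, so kit and depth cannot be told apart.

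The miRNAs whose profiles over the 4 libraries were closest to each member were found by the root mean square difference of centred log2(RPM + 1). For miR-138-5p they were miR-378a-3p (0.43), miR-532-5p (0.44) and miR-378c (0.49). miR-378a-3p stood at 2498 and 2790 RPM in the ExoQuick and Wako libraries of C26 and at 35078 and 11637 RPM in those of MC38, so both MC38 libraries were the higher, as for miR-138-5p. For miR-129-5p they were miR-320-3p (0.16), miR-674-5p (0.25) and miR-421-3p (0.26), and for miR-9-3p miR-22-3p (0.14), miR-140-5p (0.17) and miR-16-5p (0.35). For miR-9-5p they were miR-191-3p (0.26), miR-708-5p (0.35) and miR-30e-5p (0.39), and for miR-128-3p let-7j (0.34), miR-17-5p (0.39) and miR-877-5p (0.42). None of these is a member. With 4 points per profile, likeness is a description of these libraries.

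Other miRNAs that are high in brain were a separate list of 24, of which 14 had a row. Reads were found for all 14 in C26 ExoQuick, for 9 in MC38 ExoQuick, for 9 in C26 Wako and for 3 in MC38 Wako, with sums of 946, 593, 2909 and 1293 RPM. In both ExoQuick libraries this sum was below that of the 6 neuron-enriched members (4470 and 8775 RPM). In C26 Wako the sums lay close, at 2909 RPM against 3146 for the members (98 and 106 reads). In MC38 Wako they were 1293 and 3620 RPM, on 5 and 14 reads. Of the 8 that met the filter, 0 passed in limma between lines (3.33% over all 390) and 0 between kits (5.38%), with 1 and 2 at unadjusted p under 0.05. Their median log2 difference between lines was 3.59 against 1.85 for all 390, and 5 of the 8 had 0 reads in MC38 Wako, so that the value depends on the pseudocount. Without MC38 Wako the medians were 2.07 and 1.19, and without MC38 ExoQuick 5.06 and 1.74.

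Among them, the activity-induced pair miR-132 and miR-212 was led by miR-132-3p. It had 581 and 15 reads in the ExoQuick and Wako libraries of C26 and 70 and 0 reads in those of MC38, a C26 over MC38 ratio of 2.08 within ExoQuick (1.62 to 2.71). miR-212-3p had 52, 29, 8 and 1 reads in that order, and within C26 it was 22.5-fold higher with Wako (13.8 to 36), while miR-132-3p was at a ratio of 1.04 (0.578 to 1.73). Their opposite strands miR-132-5p and miR-212-5p had 45 and 14 reads in C26 ExoQuick, 3 and 2 in MC38 ExoQuick, 2 each in C26 Wako and 0 in MC38 Wako. miR-7a-5p, a miRNA of neurosecretory cells, had 102, 16, 26 and 3 reads. Its C26 over MC38 ratio within ExoQuick was 0.985 (0.635 to 1.58). miR-330-3p had 403, 15, 75 and 1 reads, a C26 over MC38 ratio of 1.35 within ExoQuick (1.05 to 1.75). miR-326-3p had 52, 14, 5 and 0 reads, and its ratio was 2.61 (1.05 to 8.38). miR-218-5p, typical of motor neurons, had 19 and 4 reads in C26 and 0 in MC38, and its 14.0 RPM in C26 ExoQuick was at least 1.59-fold the MC38 ExoQuick floor. The exact interval of the ratio, which counts the error of the C26 reads as well, began at 1.17.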

How the data were processed

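Small RNA of 4 exosome libraries, 1 per line and kit, was compared. The deposited table holds 1 normalized signal value per known mature miRNA and library. DESeq2 is named, with no version, in the submitters' processing notes. Aligner, read counter and genome build were not stated there or in the labels. Per column, 100.0% of the values above 0 equalled a whole number of steps (tolerance 0.006), a step being 1 read of a whole-number library total. The values were therefore taken as RPM, and whole reads were derived from them.

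The main test was limma 3.58.1 (R 4.3.3) on log2(value + 1) with a trended variance. It covered 390 miRNAs whose mean was 10 or more, with line and kit as additive terms, 1 residual degree of freedom, two-sided p-values and a threshold of 0.05 after Benjamini-Hochberg adjustment. The spread came in effect from the trend over all miRNAs. Fold changes on this scale can understate the change of low miRNAs, and with 0 reads they are set by the pseudocount. Alternatives included edgeR 4.0.16 and DESeq2 1.42.0 on recovered reads. Fits were tested on simulated data with line differences but no kit effect, so that test does not cover data in which the kits differ. A difference inside a single kit or line compares 2 libraries and was not tested. Members and lists were chosen with earlier results of these data known. The members, their other strands and relatives were all named, and from the list of other brain miRNAs those with at least 10 reads in a library. miR-1247 and miR-1249 only share leading letters with miR-124 and were left out.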

Additional observations from a re-analysis of the deposited data

Results flagged for a closer look

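For miR-129-5p the difference between lines had opposite signs under the kits: the C26 over MC38 ratio was 0.905 within ExoQuick and 1.26 within Wako. The Wako interval (0.55 to 3.56) holds the ExoQuick value, and 6 reads stood behind the MC38 Wako level. The difference between the kits was not tested, as the design leaves it no replicate.

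For miR-9-3p the difference between kits had opposite signs in the lines: the Wako over ExoQuick ratio was 0.644 in C26 and 1.02 in MC38. The MC38 value rests on 1 read in the Wako library (interval 0.0256 to 5.86), and the difference between lines was not tested.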

How the results depend on the processing

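The count of members called between lines was 0, and 1 with DESeq2 (miR-138-5p, log2 −3.0, adjusted p = 0.0375, with 0.0375 to 0.98 over its 15 alternatives); the other 14 alternatives gave 0, and all 15 gave 0 between kits. Over the whole table, line calls ran from 0 to 58 and kit calls from 0 to 41, against 13 and 21. The line differences of miR-138-5p, miR-128-3p, miR-9-3p and miR-9-5p kept their sign in every alternative that gave a value. The ExoQuick C26 over MC38 ratio of the members together was 0.272 without miR-129-5p, 0.316 with miR-130a-3p left out of the totals, 0.998 without miR-138-5p and 0.62 with the latter changes together, against 0.509. The last 3 were added after seeing the data.

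Signs changed for the line difference of miR-129-5p with median-ratio scaling (−0.27), quantile normalization (−0.35) and DESeq2 (−0.34), and −0.45 to 0.64 leaving out 1 library. For the kit difference they changed for miR-128-3p with median-ratio scaling (−1.09), TMM (−1.29), quantile normalization (−2.34), edgeR (−0.99) and DESeq2 (−0.97), and for miR-9-5p with a pseudocount of 10 (0.024), edgeR (0.089) and DESeq2 (0.19). Leaving out 1 library, kit differences ran from −0.25 to 0.92 for miR-128-3p, −5.15 to 2.56 for miR-9-5p, −0.97 to 0.38 for miR-9-3p and −2.73 to 0.18 for miR-138-5p. The cause was not tested. Fits without 1 library could not keep the second term. No paired analysis was possible because the labels give no replicate numbers and each combination has 1 library. Depth limits the Wako values most, where 14 and 106 reads held all members.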
